A study of Mus musculus with 12 samples.

Results

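The Egr, Nr4a and feedback immediate-early genes described here are 10 genes, Egr1, Egr2, Egr3, Nr4a1, Nr4a2, Nr4a3, Ier2, Dusp1, Btg2 and Zfp36. They were chosen by symbol, and every probe set annotated to 1 of them alone was taken, which gave 20 of 34945 single-gene probe sets and 10 of 18193 genes. All 10 genes passed the filter on low values. Total RNA from mouse hearts was hybridised to Affymetrix expression arrays, to compare hearts with and without apelin under pressure overload. The 4 groups of 3 arrays were apelin-knockout (KO) hearts with aortic banding, KO hearts with a sham operation, wild-type (WT) hearts with aortic banding and WT hearts with a sham operation. Aortic banding narrows the aorta, so that the left ventricle pumps against a raised pressure. The labels call the 3 arrays of a group biological replicates and give no age, strain, sex, duration of banding or part of the heart.

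Immediate-early genes are transcribed shortly after a cell receives a growth factor, stretch, calcium or stress signal, from transcription factors that are already present. Among these factors are serum response factor, which binds CArG boxes, and CREB, which binds cAMP response elements (CREs). EGR proteins are zinc-finger transcription factors and NR4A proteins are orphan nuclear receptors, whereas DUSP1, BTG2 and ZFP36 act back on signalling, growth and mRNA stability. In the heart, genes of these families are known to respond to mechanical load.

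The promoter sequences are shown because the members varied together across the arrays, as described below. RefSeq windows (build GRCm38.p6) ran from 250 bases before to 50 bases after a transcript start, which for Egr2, Nr4a1 and Nr4a3 lay inside the annotated gene. They were on hand for 7 of the 10 genes, as 11 windows, and not for Egr1, Egr3 and Ier2. A gene was counted for a motif if any of its windows held it, with 32851 windows for the 27025 genes in the table. The CRE core TGACG, searched on both strands, was present for 6 of the 7 genes (Btg2, Dusp1, Egr2, Nr4a1, Nr4a2 and Nr4a3), against 23.0% of 27025 genes in the table. The full element TGACGTCA, which holds the core on both strands, was found at Btg2 and Dusp1 and in 2.03% of genes. A CArG box was found at Egr2 and Zfp36 and in 1.81% of genes. The EGR site GCGGGGGCG was found at Nr4a1 and Zfp36 and in 3.31% of genes, while the EGR site GCGTGGGCG, the NR4A site AAAGGTCA and the AP-1 site TGANTCA were found at none of the 7, against 0.707%, 1.70% and 8.97% of genes. In the stretches below, written 5′ to 3′ in the direction of the gene, the capitals mark these motifs.
Dusp1, chr17:26508598-26508673, minus strand, with a CRE and a separate core: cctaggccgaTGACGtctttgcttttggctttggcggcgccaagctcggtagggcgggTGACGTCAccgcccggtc
Btg2, chr1:134079304-134079331, minus strand, with a CRE: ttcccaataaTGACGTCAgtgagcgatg
Nr4a3, chr4:48045064-48045172, plus strand, with 4 cores: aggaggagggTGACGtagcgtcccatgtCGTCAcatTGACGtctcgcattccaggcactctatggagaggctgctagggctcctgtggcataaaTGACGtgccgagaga
Egr2, chr10:67537748-67537828, plus strand, with a CArG box between cores: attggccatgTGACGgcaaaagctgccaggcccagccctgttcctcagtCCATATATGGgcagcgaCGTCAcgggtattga
Zfp36, chr7:28379267-28379343, minus strand, with an EGR site and a CArG box: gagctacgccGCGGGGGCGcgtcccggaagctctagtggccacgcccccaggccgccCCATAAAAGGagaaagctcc
A match is a description of these letters, and binding of any factor was not measured in these arrays.

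The labelled tissue was checked by 9 ventricular cardiomyocyte markers. Myh6, Tnnt2 and Myl2, which encode sarcomere proteins, ranged from 9059 to 20030 over the 12 arrays, and all 3 were highest in WT sham 3. Apln, the deleted gene, had 271, 123 and 160.1 in KO banded, 63.7, 111 and 85.4 in KO sham, 205, 223 and 255 in WT banded and 333, 323 and 212 in WT sham hearts. The array labelled KO banded 1 therefore lay within the WT range, and 5 of 6 KO arrays lay below it. That array also had 1094 of Scgb1a1, an airway secretory gene, against 1.93 to 49.8 in the other 11 arrays. The counts of members and of pathway genes that passed are therefore given with and without KO banded 1. Levels below are linear intensities, scaled by the authors so that each array has a 2% trimmed mean of 150, and levels of different probe sets are not compared with each other.

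The 10 genes were mostly higher in banded than in sham hearts and lower in KO than in WT hearts, with wide spread between arrays of a group, and Nr4a3 alone passed the test. Differences were tested with limma across 10916 genes on log2(intensity + 16), with 0.05 as the limit for the p-value after Benjamini-Hochberg adjustment. For banding averaged over the genotypes, 1 of 10 members passed, against 1.6% of all tested genes, and 7 had an unadjusted p under 0.05, against 18.2%. All 10 of these differences were positive, against 45.1% of all genes, with a median of 1.11 against -0.02. For banding in KO hearts 0 of 10 passed, against 3.81% of all genes, 5 had an unadjusted p under 0.05, against 21.1% of all genes, and 9 were positive, against 46.9%, with a median of 1.26 against -0.02. For banding in WT hearts 0 of 10 passed, against 0% of all genes, 1 had an unadjusted p under 0.05, against 4.89% of all genes, and all 10 were positive, against 44.2%, with a median of 0.76 against -0.02. The members varied together over the arrays, with a median correlation of 0.89 between pairs. These counts of members, and those below, are therefore not separate observations. In bulk hearts, a different share of a cell type and a different amount of RNA per cell cannot be told apart.

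**Figure D1:**
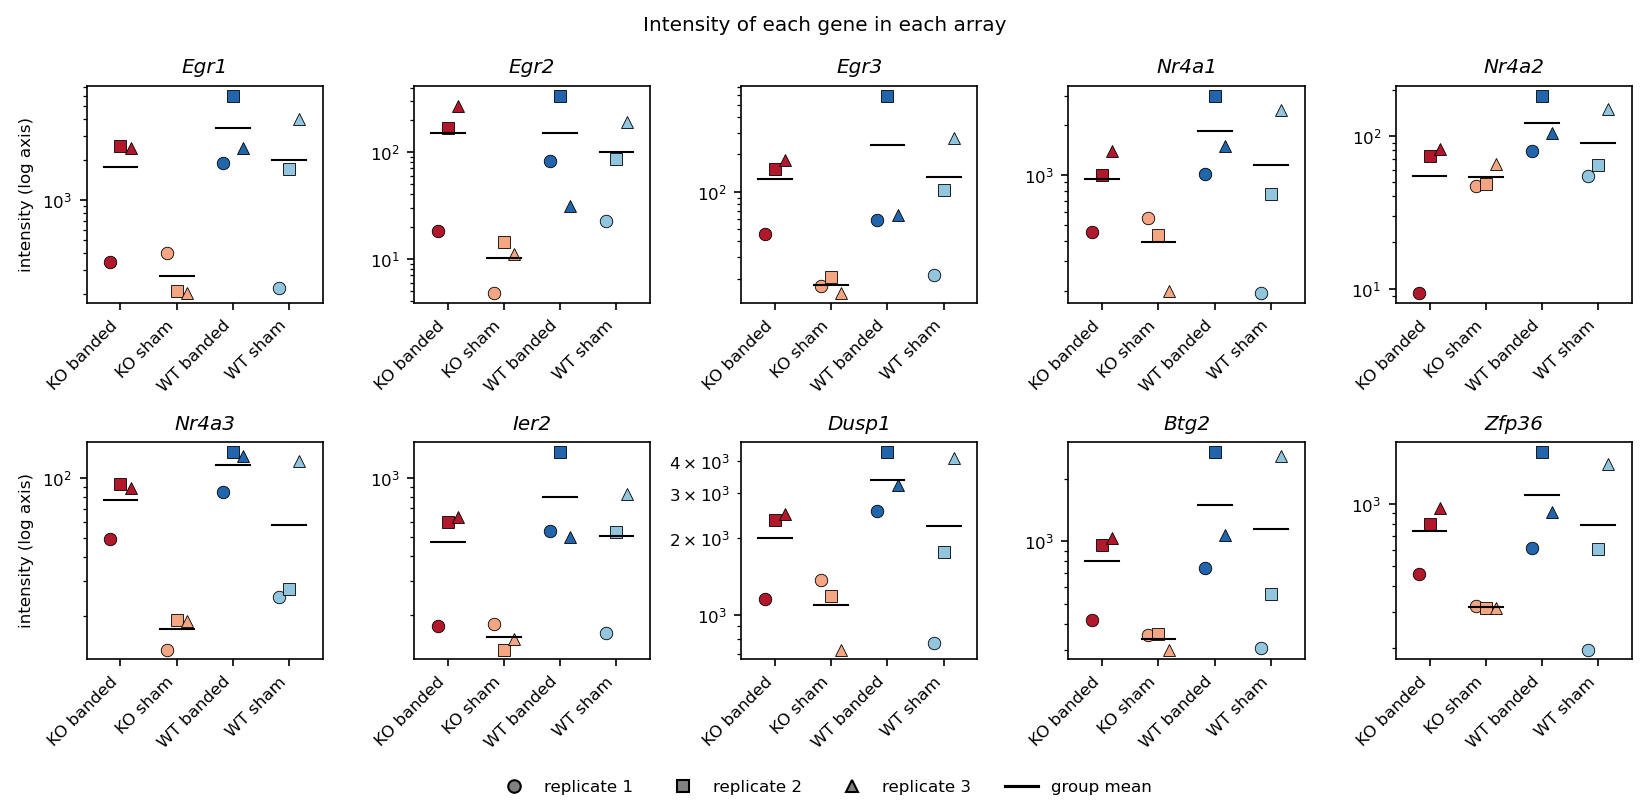
Intensity (log axis) of each of the 10 genes in each of the 12 arrays, shown by the probe set of highest mean, with the 3 arrays of a group as points and the arithmetic group mean as a line. WT banded 2 is the highest array for all 10 genes, and the 3 KO sham arrays lie below the 3 KO banded arrays for Egr2, Egr3, Nr4a3, Btg2 and Zfp36.

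Egr1 encodes a zinc-finger factor induced by growth factors and stretch. It had 342, 2516 and 2462 in KO banded hearts, against 403, 210.5 and 201 in KO sham hearts. In WT banded hearts it had 1878, 5976 and 2441, against 219.9, 1689.8 and 4037 in WT sham hearts. KO banded 1 lay between KO sham arrays, and the WT groups overlapped through WT sham 3, the other WT sham arrays lying below all WT banded arrays. The log2 difference with banding was 2.26 (SE 0.93, limma adjusted p = 0.185) in KO hearts and 1.37 (SE 0.93, adjusted p = 0.953) in WT hearts.

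Egr2, a factor best known for its role in myelinating Schwann cells and hindbrain patterning, had 18.2, 166 and 271 in KO banded hearts, against 4.76, 14.3 and 11.2 in KO sham hearts. Its WT values were 81.7, 334 and 31.2 with banding and 22.6, 85.3 and 189 with sham operation. All KO banded arrays were above all KO sham arrays, while the WT groups overlapped. The difference was 2.23 (SE 0.82, adjusted p = 0.144) in KO hearts and 0.34 (SE 0.82, adjusted p = 0.994) in WT hearts. Because 16 was added before taking logarithms, these differences understate the ratio for a gene at this level. The KO sham values lay below that constant, as did 27.3% to 29.3% of probe sets in those arrays, so a ratio to them is uncertain. The KO groups were kept apart only by 18.2 against 14.3, both near the constant.

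Egr3, a close relative that acts in muscle spindle development and lymphocytes, had 45.7, 152 and 179.9 in KO banded hearts, against 17.4, 20.6 and 15.2 in KO sham hearts. It had 59.2, 593 and 65.4 in WT banded hearts, against 21.4, 104 and 271 in WT sham hearts. The KO groups did not overlap, and WT banded 2 stood far above every other array. The difference was 1.91 (SE 0.80, adjusted p = 0.192) in KO hearts and 0.51 (SE 0.80, adjusted p = 0.987) in WT hearts. The second Egr3 probe set, 1421486_at, ranged from 33.2 to 90.3 and had a correlation of -0.22 with the first over the 12 arrays.

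Nr4a1 encodes the orphan nuclear receptor NUR77. It had 453, 998 and 1392 in KO banded hearts, against 553, 433 and 199 in KO sham hearts. It had 1008, 3006 and 1493 in WT banded hearts, against 192, 766 and 2472 in WT sham hearts. Each pair of groups overlapped, through KO banded 1 in one and WT sham 3 in the other. The difference was 1.2 (SE 0.73, adjusted p = 0.370) in KO and 1.18 (SE 0.73, adjusted p = 0.925) in WT hearts, where it ran from 0.26 to 2.05 when 1 array at a time was left out.

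Nr4a2, which encodes NURR1, a receptor known for its part in dopamine neurons, stood apart from the other members in KO hearts. It had 9.30, 73.1 and 81.6 in KO banded hearts, against 46.9, 48.4 and 64.7 in KO sham hearts. With WT hearts at 78.9, 182 and 104 after banding and 54.5, 63.8 and 150.3 after sham operation, KO banded 1 was the lowest of the 12 arrays. The difference with banding was -0.19 (SE 0.47, adjusted p = 0.860) in KO and 0.42 (SE 0.47, adjusted p = 0.982) in WT hearts. Without KO banded 1 the KO value became positive, 0.44 in the same model. The 5 other Nr4a2 probe sets reached at most 87.2, and their correlations with the main one ranged from -0.20 to 0.74.

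Nr4a3, which encodes NOR1, was the member that passed. It had 49.3, 93.5 and 88.9 in KO banded hearts, against 13.6, 19.1 and 19.0 in KO sham hearts. Its WT values were 85.0, 135 and 129 with banding and 24.9, 27.3 and 121 with sham operation. All KO banded arrays were above all KO sham arrays, and WT sham 3 was the single sham array within the banded range. Averaged over the genotypes Nr4a3 rose with banding by 1.26 on the log2 scale (SE 0.27, adjusted p = 0.0407). That is a 2.39-fold difference of intensities with the constant added before taking logarithms, and it understates the ratio of the levels themselves. The KO sham levels were close to that constant, so the ratio of levels is uncertain. Within genotypes the difference was 1.46 (SE 0.38, adjusted p = 0.0549) in KO hearts and 1.06 (SE 0.38, adjusted p = 0.921) in WT hearts. The size of the averaged difference depended on the constant. It was 1.71 (limma adjusted p = 0.0362) with pseudocount 1 and 0.71 (adjusted p = 0.0545) with pseudocount 64. The filter on low values used the mean over all 12 arrays, including the banded arrays where Nr4a3 was higher. That mean was 6.14 on the log2 scale, against 5.98 for the lowest gene tested. The filter was therefore not separate from the banding difference, and with no filter the limma adjusted p was 0.0704. The call was close to the threshold: of 12 fits that each left out 1 array, it held in 2, without KO banded 1 (1.38, adjusted p = 0.0098) and without WT sham 3 (1.54, adjusted p = 0.0046), and over the 12 fits the adjusted p reached 0.117. Without WT sham 3, Nr4a3 also passed in KO hearts (1.46, SE 0.22, adjusted p = 0.0139), against 3.83% of all genes, and for banding averaged over genotypes 0.376% of all genes passed. It also rested on 1 of 3 probe sets. Probe set 1438796_at carried it, whereas 1421079_at reached at most 13.5 and 1421080_at at most 55.6, and their averaged differences were -0.11 (SE 0.14) and -0.27 (SE 0.16). When all 34945 single-gene probe sets were tested, 0 of the 20 probe sets of the members passed in any comparison, where 0.667% of probe sets passed for banding in KO hearts, 0.28% for banding averaged over genotypes, 0.00286% for KO against WT in sham hearts, 0.0114% for KO against WT averaged over surgery and 0% in the other 3 comparisons.

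**Figure D2:**
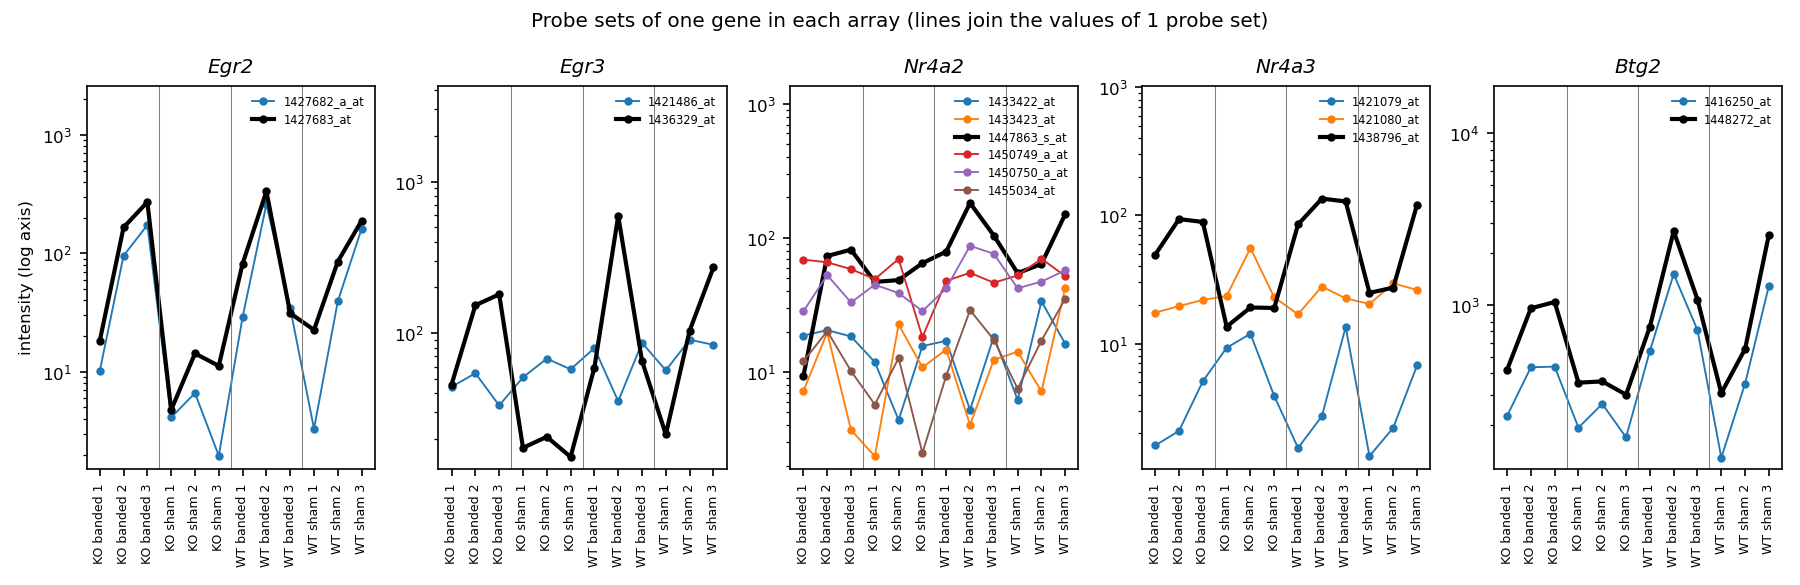
Intensity (log axis) of every probe set of the 5 genes with more than 1, in the 12 arrays. The thick black line is the probe set with the highest mean. Both Egr2 and both Btg2 probe sets follow each other, with correlations of 0.97 each, while the other Egr3 and Nr4a3 probe sets do not follow the black line.

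Ier2, a small nuclear protein induced by growth factors, had 178, 600.4 and 634 in KO banded hearts, against 180, 134 and 152 in KO sham hearts. In WT banded hearts it had 537, 1354 and 503, against 162, 533 and 825 in WT sham hearts. KO banded 1 again lay at the level of the KO sham arrays. Its difference with banding was 1.32 (SE 0.57, adjusted p = 0.200) in KO hearts and 0.75 (SE 0.57, adjusted p = 0.979) in WT hearts.

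Dusp1 encodes a phosphatase that inactivates MAP kinases. It had 1149.6, 2361 and 2475 in KO banded hearts, against 1373, 1184 and 729.8 in KO sham hearts. It had 2553, 4339 and 3238 in WT banded hearts, against 772, 1756 and 4127 in WT sham hearts. The 2 banded groups did not overlap, with every KO array below every WT array. The difference with banding was 0.82 (SE 0.49, adjusted p = 0.354) in KO and 0.88 (SE 0.49, adjusted p = 0.921) in WT hearts.

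Btg2, an antiproliferative protein that recruits mRNA deadenylases, had 418, 954 and 1039 in KO banded hearts, against 353, 359 and 301 in KO sham hearts. It had 746, 2683 and 1073 in WT banded hearts, against 307, 554 and 2564 in WT sham hearts. The KO groups did not overlap, although KO banded 1 was close to the sham arrays. The difference was 1.12 (SE 0.64, adjusted p = 0.340) in KO and 0.75 (SE 0.64, adjusted p = 0.982) in WT hearts.

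Zfp36 encodes tristetraprolin, which binds AU-rich elements and speeds the decay of inflammatory mRNAs. It had 455, 801 and 952 in KO banded hearts, against 319, 313 and 311 in KO sham hearts. It had 609, 1780.1 and 909 in WT banded hearts, against 197, 606 and 1559 in WT sham hearts. The 3 KO sham arrays were close together, whereas the WT sham arrays ran from the lowest to the second highest of the 12. The difference was 1.12 (SE 0.57, adjusted p = 0.276) in KO and 0.77 (SE 0.57, adjusted p = 0.975) in WT hearts.

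Counted without a model, 5 of 10 members (Egr2, Egr3, Nr4a3, Btg2 and Zfp36) had all KO banded arrays above all KO sham arrays, against 12.2% of all tested genes, and 0 lay wholly below, against 14.4%. In WT hearts 0 of 10 were wholly above, against 3.76%, and 0 wholly below, against 6.17%. Without KO banded 1 all 10 members had the remaining KO banded arrays above all KO sham arrays, against 22.3% of all genes, and 0 below, against 26.9%. Without WT sham 3, 7 of 10 (all but Egr2, Egr3 and Ier2) had all WT banded arrays above the remaining WT sham arrays, against 7.16% of all genes, and 0 below, against 14.1%.

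Leaving out KO banded 1, the array with Apln in the WT range, changed the count for KO hearts. Then 4 of 10 members passed, against 13.2% of all tested genes, and 8 had an unadjusted p under 0.05, against 27.4%. Egr1 rose by 3.19 (SE 0.88, adjusted p = 0.0338), Egr2 by 3.15 (SE 0.74, adjusted p = 0.0163), Nr4a3 by 1.69 (SE 0.42, adjusted p = 0.0200) and Ier2 by 1.89 (SE 0.53, adjusted p = 0.0378). Averaged over the genotypes, these 4 genes also passed, against 9.16% of all genes. Dusp1, Btg2, Zfp36, Egr3, Nr4a1 and Nr4a2 did not pass in either comparison without it. With array weights estimated by limma, 5 of 10 members passed in KO hearts (these 4 and Egr3), against 17.1% of all genes, and 4 passed for banding averaged over the genotypes (Egr1, Nr4a3, Ier2 and Dusp1), against 7.04%.

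**Figure D3:**
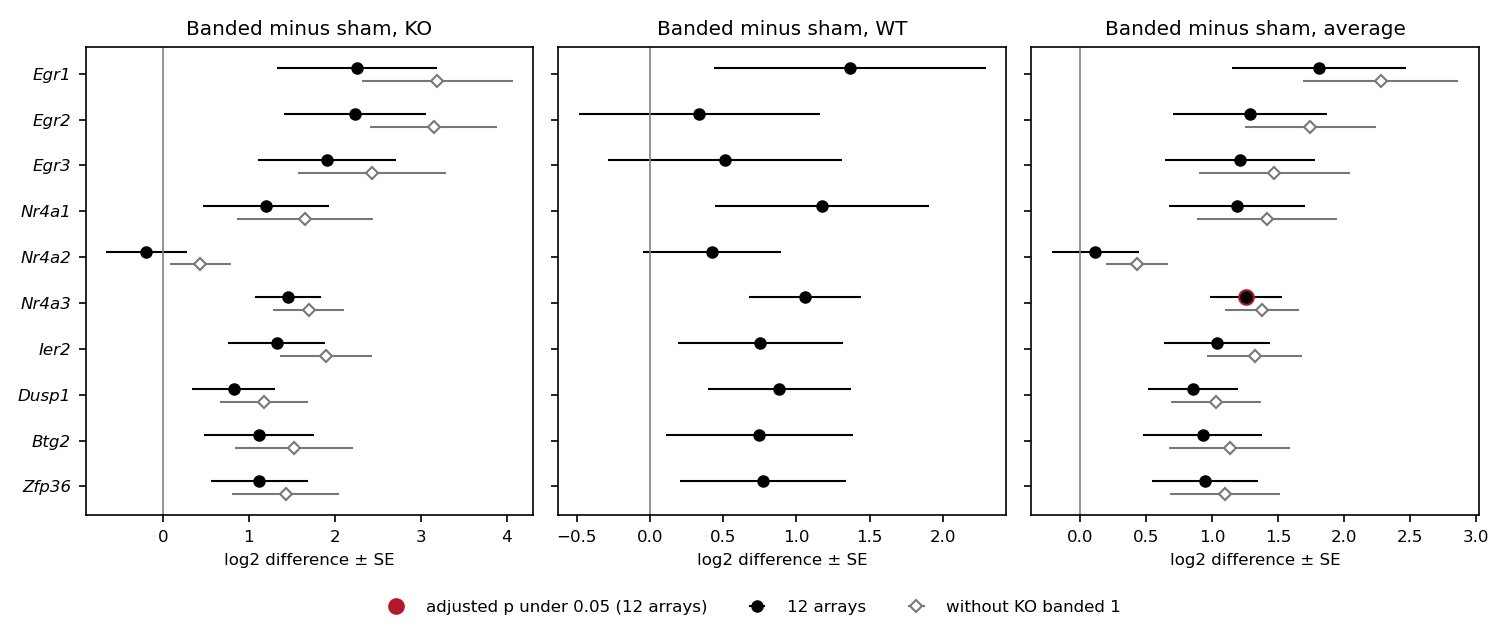
Log2 difference of banded minus sham hearts with its standard error for the 10 genes, in KO hearts, in WT hearts and averaged over both. Filled points use all 12 arrays, open diamonds leave out KO banded 1 (not drawn for WT hearts), and the red ring marks Nr4a3, with an adjusted p of 0.0407.

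The comparison of genotypes gave negative differences for most members, none of which passed. In sham hearts KO minus WT was negative for 10 of 10, where 50.7% of all genes were positive, with a median of -1.05 against 0.0032 over all genes. An unadjusted p under 0.05 was found for 4, against 5.22% of all genes. The adjusted p was 0.930 or more for all members, where 0% of all genes passed. Egr1 differed by -2.10 (SE 0.93), Egr2 by -1.85 (SE 0.82) and Egr3 by -1.69 (SE 0.80). These values leaned on WT sham 3. Without it all 10 stayed negative, but the median was -0.32 and 0 had an unadjusted p under 0.05, against 5.72% of all genes. Egr1 then differed by -1.21 (SE 0.92), Egr2 by -1.28 (SE 0.89) and Egr3 by -0.99 (SE 0.82). In that fit Btg2 differed by -0.28 (SE 0.49), against -1.15 with all arrays, and Nr4a1 by -0.09 (SE 0.64), against -0.96. The KO sham arrays lay below all WT sham arrays for Egr2, Egr3 and Nr4a3, 3 of 10 members, against 5.32% of all genes, and above them for 0, against 5.5%. Without WT sham 3 the same 3 genes were wholly below, against 12.4% of all genes, and 0 above, against 10.3%. In banded hearts 9 of 10 differences were negative, where 50.6% of all genes were positive, and the median was -0.78. There 1 unadjusted p was under 0.05 (Nr4a2, -1.12, SE 0.47, adjusted p = 0.291), against 14.6% of all genes, and 0% of all genes passed after adjustment. Without KO banded 1, 8 of 10 were negative, with a median of -0.28 and 0 unadjusted p under 0.05, against 21.6% of all genes. Nr4a2 then differed by -0.49 (SE 0.35, adjusted p = 0.467) and Egr1 by -0.28 (SE 0.88), against -1.21 with all arrays, while Egr2 was 0.96 (SE 0.74) and Egr3 0.23 (SE 0.86). Dusp1 was the 1 member with all KO banded arrays below all WT banded arrays (-0.80, SE 0.49, adjusted p = 0.474), against 8.95% of all genes, and 0 members had the reverse, against 10.1%. It was also the 1 such member without KO banded 1, against 21.3% of all genes, with 0 in reverse, against 20.9%. Averaged over surgery all 10 were negative, where 51.1% of all genes were positive, with a median of -0.92. An unadjusted p under 0.05 was found for 5, against 10.6% of all genes, and the smallest adjusted p was 0.416 (Ier2). That count of 5 became 1 without KO banded 1 (Ier2), against 16.2% of all genes, and 1 without WT sham 3 (Nr4a3), against 9.74%. The KO sham arrays serve both in the banding comparison of KO hearts and in the sham comparison of genotypes, so these are not separate lines of evidence.

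The interaction, the KO banding difference minus the WT banding difference, passed for 0 of 10 members and 0% of all genes, with 0 members at an unadjusted p under 0.05, against 9.11% of all genes. Its largest value was 1.90 for Egr2 (SE 1.17, adjusted p = 0.639), and 8 of 10 values were positive, against 50.4% of all genes. Without KO banded 1 all 10 were positive, with a median of 0.72 against 0.38 with all arrays, and without WT sham 3 there were 7 negative values, with a median of -0.26. A larger banding response in KO than in WT hearts was therefore not detectable for these genes with 3 arrays a group.

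The order of group means was WT banded, WT sham, KO banded, KO sham, from high to low, for 8 of the 10 genes. Egr2 had its highest mean in KO banded hearts and Nr4a3 had KO banded above WT sham, and KO sham was lowest for all 10. Of the 3 steps between neighbours in this order, 1 was larger than both SDs of the groups it joins for every gene but Nr4a2, which had none. That step was KO banded over KO sham for 7 genes, WT sham over KO sham for Egr2 and WT banded over KO banded for Nr4a3. The other neighbours lay within the larger of their SDs.

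Differences between arrays of a group were wide for these genes. Their residual SD on the log2 scale ran from 0.56 (Nr4a3) to 1.42 (Egr1), against a median of 0.18 over all tested genes, and each was larger than that of at least 97.9% of genes. In WT sham hearts the highest Egr1 array was 18.4 times the lowest, whereas in KO sham hearts the ratio was 2.0. The same arrays were high for nearly every member. WT banded 2 was the highest of 12 for all 10 genes, WT sham 3 was among the highest 3 for all 10, and KO sham 3 was among the lowest 3 for 9. KO banded 1 had a mean rank of 4.1 of 12, against 8.3 and 9.3 for the other KO banded arrays and 2.0 to 3.3 for the KO sham arrays.

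Over the 12 arrays the 45 pairs of members had a median Pearson correlation of 0.89 on the log2 scale, from 0.61 to 0.99, with a median Spearman value of 0.87. Pairs of tested genes in general had a median of 0.0073. The group differences did not carry this alone, because after subtracting the group means the median was 0.86. For the log2 values without the 2 arrays farthest from the median of the members' mean level, KO sham 3 and WT banded 2, it was 0.86. For the deviations from group means without their 2 farthest arrays, WT sham 1 and WT sham 3, the median was 0.82 and the lowest value 0.50. Nr4a2 was the least alike, with 0.74 to the mean of the others, and Btg2 the most, with 0.98. These correlations are descriptions, and all points share array scaling and RNA extract.

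**Figure D4:**
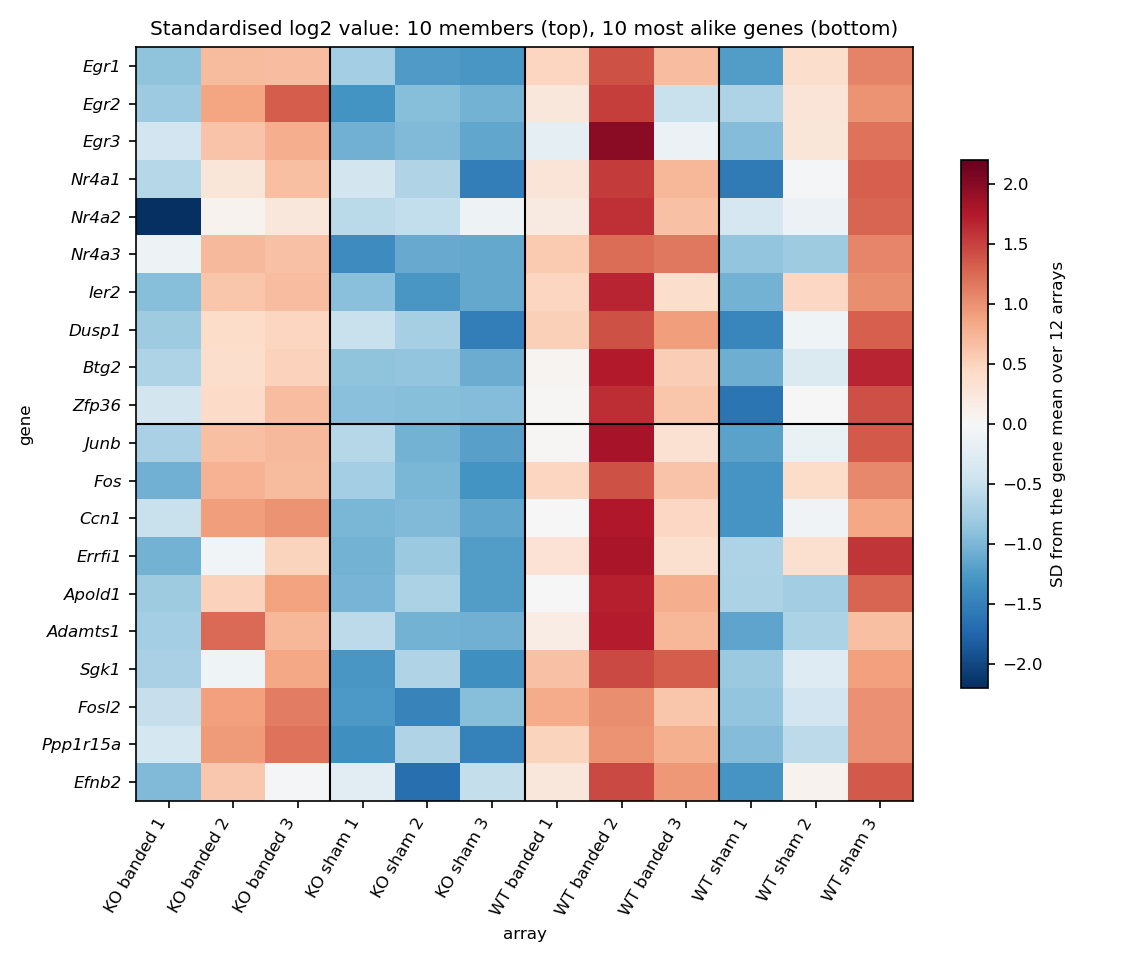
Log2 values of the 10 members (upper block) and of the 10 genes most alike to their mean (lower block), each centred and divided by its own SD over the 12 arrays. WT banded 2 and WT sham 3 are high and the KO sham arrays are low in nearly every row, and the mean of the members in KO banded 1, -0.80, lies near the KO sham arrays (-1.09 to -0.87) and WT sham 1 (-1.08).

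The 10 genes most alike to the mean of the members were Junb (correlation 0.99 over 12 arrays), Fos (0.98), Ccn1 (0.97), Errfi1 (0.96), Apold1 (0.95), Adamts1 (0.93), Sgk1 (0.91), Fosl2 (0.91), Ppp1r15a (0.91) and Efnb2 (0.90). Fos encodes an AP-1 subunit that is itself an immediate-early product, and among genes that are not members it was the closest to Egr1, with 0.995, and to Dusp1, with 0.96. Its levels were 63.1, 1072 and 974 in KO banded hearts, 108, 70.5 and 38.8 in KO sham hearts, 697, 2744 and 894 in WT banded hearts and 40.6, 631 and 1644 in WT sham hearts. Also among non-members, Junb was the closest to Nr4a1, with 0.96, and Atf3 was among the closest 3 to Nr4a1, with 0.94, and to Dusp1, with 0.93. Within groups, the deviations of these 10 genes had correlations of 0.86 to 0.99 with those of the members. The 10 genes were chosen by their correlation over these same arrays, so the values within groups are not separate evidence.

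Markers of other cells moved with some of these arrays. Of 8 neutrophil markers listed, 6 were matched in the annotation, and their summed intensity was 148 to 376 in KO banded, 229 to 733 in KO sham, 187 to 2120.1 in WT banded and 125 to 985 in WT sham hearts. The highest sums were in WT banded 2 and WT sham 3, the 2 arrays with the highest member levels. S100a8 and S100a9 made up most of these sums (877 and 1041 in WT banded 2, 391 and 408 in WT sham 3). The next sum, 733, was in KO sham 1, where member levels were low, while KO banded 2 and 3 had 148 and 376 with high member levels. Summed ventricular cardiomyocyte markers were also highest in WT sham 3 (131837) and WT banded 2 (103061). The next sums, 96628 in WT sham 1 and 91776 in KO sham 1, were in arrays with low member levels. KO banded 2 and 3 had 76549 and 76963 with high member levels. Atrial cardiomyocyte markers summed to 12712 to 16796 in KO banded and 6164 to 27540 in KO sham hearts. Their sums were 6352 to 36263 in WT banded and 4413 to 30891 in WT sham hearts. WT banded 2 (30056) and WT sham 3 (30891) were high, but so was KO sham 3 (27540), where member levels were low. The part of these markers in the members' levels was not tested. For lung and airway markers the sum was 1675 in KO banded 1 and 173 to 248 in the other arrays, and for adipocyte markers it was 589 in KO banded 1, 518 in WT banded 1 and 50.1 to 177 in the others. Of these lists, 3 neutrophil genes, 1 lung and airway gene (Sftpb) and 1 adipocyte gene (Retn) were tested, and none passed for banding in KO hearts. Scgb1a1 and Adipoq, at 1094 and 392 in KO banded 1, were removed by the filter on low values and were not tested. The count therefore does not bear on the high sums of that array. The log2 ratio of 3′ to 5′ Actb control probe sets, a measure of RNA quality, was -0.22 to -0.17 in the KO banded arrays and -0.09 to 0.30 in the other 9. The same ratio for Gapdh was -0.34 to -0.32 in the KO banded arrays and -0.39 to -0.33 in the other 9, and these ranges overlapped. The part of RNA quality in the banding differences of KO hearts was not tested.

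Other genes of the pathway were counted by list, in the same fit, for banding in KO hearts, where 2.05% of all tested genes rose and 1.76% fell. In the AP-1 list 1 of 8 tested genes rose and 0 fell, Mafk, a small Maf protein, by 0.88 (SE 0.22, adjusted p = 0.0448). Fosl2 (1.14, adjusted p = 0.0552), Maff (1.22, adjusted p = 0.0759) and Jun (1.14, adjusted p = 0.0856) did not pass, although Maff passed for banding averaged over the genotypes (1.19, SE 0.25, adjusted p = 0.0386). Of 24 other immediate-early genes 2 rose and 0 fell, Hbegf, a growth factor that activates the EGF receptor, by 1.54 (SE 0.34, adjusted p = 0.0314), and Klf4, a Kruppel-like factor, by 0.79 (SE 0.17, adjusted p = 0.0295). Among 21 upstream kinases and serum response factors 0 rose and 2 fell, Mapk14, the p38 alpha kinase, by 0.58 (SE 0.12, adjusted p = 0.0242), and Mef2a, a muscle transcription factor, by 0.47 (SE 0.12, adjusted p = 0.0467).

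Feedback inhibitors moved in both directions. Of 15 EGR corepressors and MAP kinase feedback inhibitors 2 rose, Spry1, which restrains receptor tyrosine kinase signalling, by 1.01 (SE 0.20, adjusted p = 0.0213), and Dusp6, an ERK phosphatase, by 1.06 (SE 0.23, adjusted p = 0.0306). Dusp7, a phosphatase of the same family, fell by 0.68 (SE 0.16, adjusted p = 0.0361). Of 11 BTG/TOB and ZFP36 family and deadenylation genes 0 passed, and the smallest adjusted p was 0.0788 for Zfp36l1 (0.45).

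Among known targets, 2 of 9 EGR targets rose and 0 fell, Cd44, a hyaluronan receptor, by 1.17 (SE 0.20, adjusted p = 0.0167), and Mmp14, a membrane matrix protease, by 1.05 (SE 0.23, adjusted p = 0.0306). Of 9 muscle metabolic genes described as NR4A targets 0 rose and 2 fell, the glucose transporter Slc2a4 by 0.68 (SE 0.14, adjusted p = 0.0269) and the phosphorylase kinase subunit Phkg1 by 1.56 (SE 0.39, adjusted p = 0.0450). Of 13 listed ZFP36 target transcripts 3 were tested and 0 passed. For scale, 2 of 10 heat-shock genes (Hsp90aa1 and Hspa1a) and 6 of 10 load-responsive genes rose, the largest being Myh7, the fetal myosin heavy chain, by 2.83 (SE 0.58, adjusted p = 0.0239). For banding in WT hearts 0 genes of these 10 lists passed. The summed load-responsive genes were 30117 to 46429 in WT banded and 14354 to 35238 in WT sham hearts, and these ranges overlapped. WT sham 1 (35238) and WT sham 3 (32992) lay above WT banded 3 (30117). In KO hearts the sums were 41546 to 57909 with banding and 20445 to 24939 with sham operation.

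Without KO banded 1, an alternative chosen after seeing the data, 6.23% of all genes rose and 6.97% fell with banding in KO hearts, and every gene of these 10 lists that had passed with all arrays and was tested passed again. In the AP-1 list 4 of 8 then rose (Fos, Fosl2, Maff and Mafk), and of the other immediate-early genes 3 of 24 rose (Ccn1, Hbegf and Klf4) and 2 fell (Gadd45a and Rgs2). Of 20 upstream genes 4 rose (Crem, Elk3, Map2k1 and Srf) and 5 fell. Among the EGR corepressors and feedback inhibitors 6 of 15 rose, with Nab1, an EGR corepressor, and Spry4 among them, and Dusp7 fell. Zfp36l1 rose in its list of 11. Of the EGR targets 2 of 9 rose and 2 fell (F3 and Pdgfa), of the NR4A metabolic targets 5 of 9 fell, and of the 3 ZFP36 targets none passed. Of the heat-shock genes 4 of 10 rose and 1 fell, and 8 of 10 load-responsive genes rose.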

How the data were processed

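Biotin-labelled total RNA of 12 mouse hearts was measured on Affymetrix arrays, per the labels. The values deposited by the authors are linear intensities per probe set, on which each array has a 2% trimmed mean of 150; the software behind them is not given in the sources used here. Arrays have no read depth, so 3 arrays a group limit the precision. Of 45101 probe sets, 64 controls, 932 with several genes and 9160 not listed in the annotation were left out. Values were taken as log2(intensity + 16). Each gene was represented by the probe set with the highest mean log2 value over all arrays, and the upper 60% of 18193 genes were tested. One model with 4 group means was fitted in limma (3.58.1, R 4.3.3; eBayes with a variance trend, 8 residual degrees of freedom), with 7 contrasts, two-sided tests and Benjamini-Hochberg adjustment. p-values measure the spread between the labelled biological replicates. The procedure was tested on simulated data. The 10 members, the 10 pathway lists and the 12 marker lists were chosen with earlier results of these data known, and 235 of 251 listed genes matched. Named genes are all members, Apln, the genes with the smallest p in each list, and the genes most correlated with the members. Other settings tried changed the pseudocount, the filter on low values, the scaling (quantile or median), the variance trend, array weights, the use of probe sets, the groups entering a fit and a replicate block, and left out each array in turn.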

Additional observations from a re-analysis of the deposited data

How the results depend on the processing

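For banding averaged over genotypes, the 1 member past the threshold became 0 with no filter, the upper 40% of genes, pseudocount 64, no variance trend, every probe set, or the mean of probe sets, and 4 (Egr1, Nr4a3, Ier2 and Dusp1) with array weights. Leaving out 1 array at a time gave 0 to 4. The upper 40% of genes and the mean of probe sets did not test Nr4a3. Its adjusted p was 0.0704 with no filter, 0.0532 without the trend, 0.0545 with pseudocount 64 and 0.0844 over every probe set. For banding in KO hearts the count of 0 became 1 (Nr4a3) with pseudocount 1 and with only the 2 groups compared, 5 (Egr1, Egr2, Egr3, Nr4a3 and Ier2) with array weights, which gave KO banded 1 the lowest weight, 0.43, and 0 to 4 over the leave-one-out fits, with 1 (Nr4a3) without WT sham 3. In the other 5 comparisons the count was 0 under every alternative run. Over all genes, leaving out 1 array gave 9 to 1441 calls for banding in KO hearts and 5 to 1000 for banding averaged over genotypes.

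Same-numbered arrays did not deviate together (correlations of -0.28 to 0.23 between residuals, and 2 of 12 arrays closest to their own number), so the numbers were not taken as pairs. The replicate block gave 1 member (Nr4a3) for banding in KO hearts and 1 for banding averaged over genotypes.

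Of 1608 member differences under alternatives, 1532 kept their direction and side of the threshold, 19 passed it, 14 no longer did and 43 changed sign, 22 of these in the interaction and 0 of them of a difference past the threshold. By setting, the changes of sign outside the leave-one-out fits were Dusp1 interaction 0.0286 and Nr4a2 KO banding 0.18 with array weights; Egr2 in KO against WT banded -0.0615 over every probe set, -0.0069 with the mean of probe sets and -0.0121 with pseudocount 1; and over every probe set Egr3 WT banding -0.21, Nr4a2 KO banding 0.48, Nr4a2 interaction 0.65 and Nr4a3 interaction -0.50. Leave-one-out ranges that crossed 0 were, for the interaction, Btg2 -0.49 to 1.01, Dusp1 -0.66 to 0.53, Egr1 -0.00029 to 2.05, Egr3 -0.44 to 2.17, Nr4a1 -0.85 to 0.94, Nr4a2 -0.996 to 0.0150, Nr4a3 -0.17 to 0.70 and Zfp36 -0.36 to 1.09. Elsewhere they were Egr2 WT banding -0.45 to 0.99, Egr2 KO against WT banded -0.61 to 0.96, Egr3 averaged banding -0.11 to 1.56, Egr3 KO banding -0.33 to 2.43, Egr3 WT banding -0.26 to 1.21, Egr3 KO against WT banded -0.81 to 0.23, Nr4a2 averaged banding -0.0569 to 0.43 and Nr4a2 KO banding -0.54 to 0.44. Without WT banded 2 the other Egr3 probe set had the higher mean and stood for the gene.

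The counts of groups that do not overlap and of list genes without KO banded 1 or WT sham 3 are alternatives chosen after seeing the data.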
